A study of Mus musculus with 9 samples.

Results

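This set holds 125 mouse genes whose RNA was lower than in wild type cells when Suv39h1 and Suv39h2 were missing and higher when G9a and Glp were missing. The RNA-seq libraries came from mouse embryonic fibroblasts (MEF) of 3 genotypes, with 3 cultures each. The WT cells are Eset1-conditional MEF that keep all H3K9 lysine methyltransferases (KMT) as long as tamoxifen does not delete Eset1. The labels give S1S2 as Suv39h1/Suv39h2 KO and G9Gl as G9a/Glp KO, where G9a is encoded by Ehmt2 and Glp by Ehmt1. Per the study's methods, both mutants were made from the Eset1-conditional MEF with CRISPR/Cas9, as clones that had lost the target proteins on western blots, so all 3 genotypes share the conditional Eset1 allele. The cultures of a mutant are taken as cultures of a single clone, so the genotype and the clone cannot be told apart in any comparison here. Nothing in the labels says how far apart the cultures of a genotype were grown, and p-values measure the spread between these libraries, which may be technical.

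The members were chosen by their measured values. Each count was divided by the library's total of gene counts and multiplied by 1000000 (CPM), and the mean CPM of each genotype was taken as log2(mean CPM + 0.5). A member is at least 0.8 lower in S1S2 than in WT and at least 0.8 higher in G9Gl than in WT, and in both comparisons the 3 mutant libraries do not overlap the 3 WT libraries. Of the 47937 genes in the table, 127 met this rule. Crmp1, Rps6ka6 and the Zfp, Hox, Col and Pcdh symbols are left out by name, which removed the first 2 and left 125. Because the levels in all 9 libraries chose the members, their differences between genotypes are given below as a description without a test, and both differences share the WT libraries.

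H3K9 methylation marks silent chromatin. Suv39h1 and Suv39h2 place the trimethyl mark on pericentric heterochromatin, which is bound by HP1, whereas G9a and Glp work as a heterodimer that mainly places mono- and dimethyl marks in euchromatin and holds down genes there. In fibroblasts, contractile and matrix genes are switched on as the cells become myofibroblasts, the cell type of wound contraction and scar formation, and serum response factor acts on many of the contractile genes through the CArG box, an A/T-rich DNA element.

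The libraries held between 21319778 and 32157623 gene counts, with the 3 S1S2 libraries the smallest. A floor of 3 counts corresponded to between 0.0933 and 0.141 CPM. Libraries of the same genotype correlated across genes with r of 0.993 or more on log2 CPM and those of different genotypes with r of 0.966 or less, where genes are no independent replicates. Suv39h1 was read at 113.7, 108.1 and 106.2 CPM in WT and at 42.7, 44 and 38.2 CPM in S1S2, whereas Suv39h2 stood higher in S1S2, at 56.8, 55.2 and 52.6 CPM against 33.5, 34.2 and 35.4 CPM. Ehmt2 was read at 130.6, 131.5 and 117.1 CPM in WT against 57.5, 52.4 and 51.6 CPM in G9Gl, and Ehmt1 at 103.4, 105.4 and 105.6 CPM against 51.9, 49.3 and 48.3 CPM. A frameshift allele can leave its RNA in place, so the level of Suv39h2 does not bear on the protein. The 10 fibroblast markers summed to between 3251 and 3540 CPM in WT, 4066 and 4333 in S1S2 and 2892 and 3059 in G9Gl, with Lum at or under the floor in every genotype. Thy1 is both one of these markers and a member. Summed markers of endothelial cells reached at most 2.36 CPM and those of skeletal muscle at most 0.124 CPM in any library. The epithelial markers summed to between 5.04 and 5.595 CPM in S1S2 and to at most 0.668 CPM elsewhere, the macrophage markers to between 3.23 and 4.93 CPM, with Adgre1 and Itgam at or under the floor in all genotypes, the neural and glial markers to between 18.2 and 43.2 CPM, highest in S1S2, and the adipocyte markers to between 1.19 and 2.29 CPM. The part of other cell types in the results was not tested, and in bulk RNA fewer cells of a type and less RNA per cell cannot be told apart.

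All 125 members passed the filter on low counts, as did 15540 genes in all. In the edgeR quasi-likelihood fit of the 9 libraries, with a gene called when its adjusted p was 0.01 or less and it changed 2-fold or more, 120 members were called lower in S1S2, where 4.34% of all tested genes were. In G9Gl 114 members were called higher, beside 6.77% of all tested genes, and 110 were called in both mutants, beside 0.952% of the tested genes. All 125 were called higher in G9Gl than in S1S2, beside 7.97% of tested genes called higher and 5.08% called lower in that contrast. The rule used the same libraries, so nothing is read from these counts. In the opposite directions, 4.66% of tested genes were called higher in S1S2 and 3.4% lower in G9Gl. On the scale of the rule 4.25% of tested genes were lower in S1S2, 6.76% higher in G9Gl and 0.817% both, while 29.8% of tested genes had all S1S2 libraries under all WT libraries and 24.3% had all G9Gl libraries over all WT libraries.

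**Figure D1:**
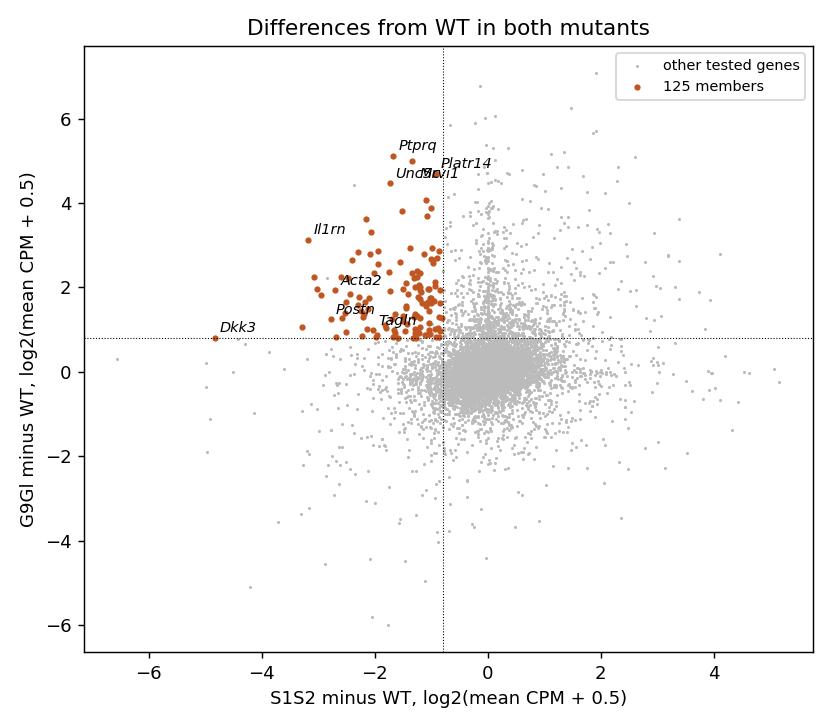
Difference from WT in S1S2 (x axis) and in G9Gl (y axis), both as log2(mean CPM + 0.5), for 15540 tested genes, with the 125 members in colour and the dotted lines at the thresholds of 0.8. The members fill the upper left corner, from Dkk3 at -4.84 in S1S2 to Ptprq at 5.12 in G9Gl.

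The members were genes of low level in WT. Their median WT level was 2.77 CPM, whereas that of all tested genes was 18.8 CPM, and per kilobase of exon it was 0.712 CPM against 4.75 CPM. A mean under 1 CPM in WT was measured for 31 members, between 1 and 10 CPM for 65, and at 10 CPM or more for 29, of which 9 were over 50 CPM. No member was at or under the floor of 3 counts in all WT libraries, but 27 were in S1S2. For these the size of the fall is not known, the fold against the floor is a lower bound, and a difference on the scale of the rule depends on the constant of 0.5 CPM, which caps the fall of low genes. On that scale the median difference from WT was -1.34 in S1S2 and 1.66 in G9Gl, beside -0.03 for all tested genes in both. As ratios of mean CPM, with the 27 members taken at their bound, the medians were 4.96-fold lower in S1S2 and 3.57-fold higher in G9Gl. A difference of 2 log2 units or more on the scale of the rule was measured in S1S2 for 33 members, in G9Gl for 41 and in both for 10. Between the mutants themselves the members differed by 1.69 to 6.79 log2 units, with a median of 3.14.

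**Figure D2:**
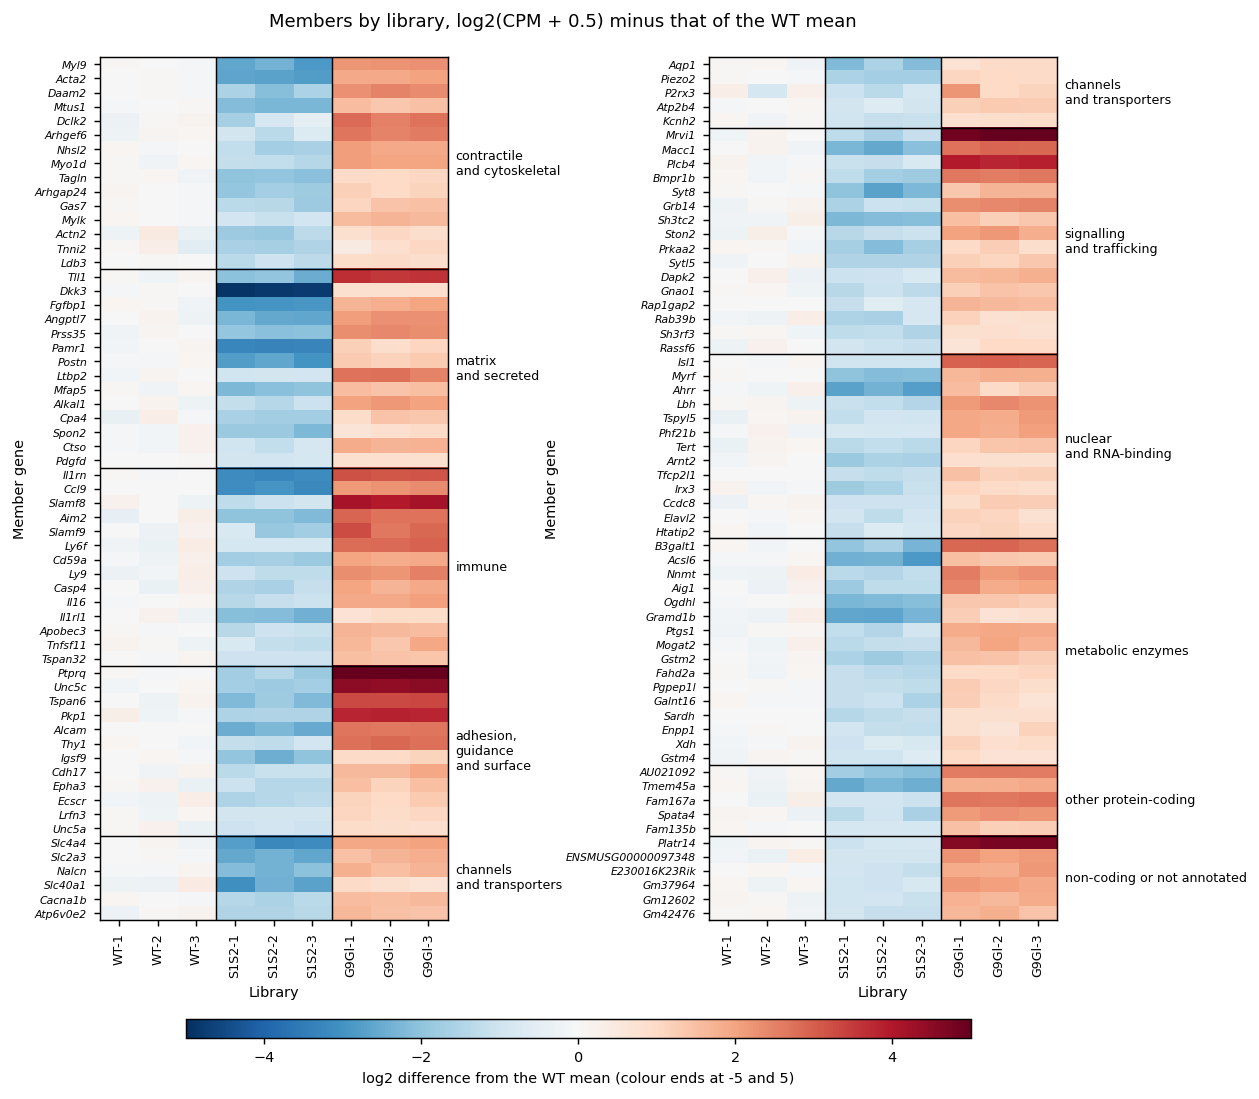
log2(CPM + 0.5) of 122 of the 125 members in each of the 9 libraries, relative to the WT mean, with members in rows by group of function and libraries in columns. The 3 libraries of a genotype carry nearly the same colour in most rows, the largest rises (Ptprq, Mrvi1, Platr14, Unc5c) exceed 4 log2 units, and the spread among the G9Gl libraries is plain for P2rx3 and Slamf9.

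The member genes were sorted by function into 10 groups after their values had been seen, to order the text. Of the contractile and cytoskeletal genes, 16 were members, and among them were the best known markers of smooth muscle and myofibroblasts. In S1S2 they differed from WT by -2.69 to -0.89 log2 units, with a median of -1.55, and in G9Gl by 0.81 to 3.69, with a median of 1.78. Acta2, the smooth muscle alpha-actin that defines myofibroblasts (chr19:34241090-34255590, minus strand, GRCm38), was read at 276, 279 and 255 CPM in the WT libraries, at 43.3, 41.4 and 39 CPM in S1S2 and at 1006, 1002 and 1086 CPM in G9Gl. The 3 genotypes were far apart, with means of 269.8 ± 12.9, 41.2 ± 2.12 and 1031 ± 47.1 CPM (SD, n = 3), which is 6.54-fold lower in S1S2 and 3.82-fold higher in G9Gl. Tagln, which encodes the actin-binding protein transgelin (chr9:45929619-45936058, minus strand), was read at 334, 346 and 284 CPM in the WT libraries, at 79.3, 80.4 and 74.8 CPM in S1S2 and at 619.7, 643 and 657 CPM in G9Gl. It was 4.11-fold lower in S1S2 and 1.99-fold higher in G9Gl. Of its 75-base sequences 53.3% also occur in the transcripts of Gm48529 and Pcsk7, and Pcsk7 overlaps it on the opposite strand, so its reads could be shared among them. Myl9, the regulatory light chain of smooth muscle myosin (chr2:156775420-156781658, plus strand), stood at 34.5, 34.2 and 31.9 CPM in WT, 5.09, 6.09 and 4.17 CPM in S1S2 and 158, 161 and 167 CPM in G9Gl, or 6.55-fold lower and 4.82-fold higher than WT. Mylk, the kinase that phosphorylates this light chain to start contraction (chr16:34745210-35002420, plus strand), stood at 5.69, 5.11 and 4.97 CPM in WT, 2.46, 2.17 and 2.44 CPM in S1S2 and 16.6, 18.1 and 17.2 CPM in G9Gl. As the rule sets for every member, each S1S2 library lay below and each G9Gl library above every WT library. Of these 4 genes, Acta2 and Myl9 moved most in both directions.

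The promoters of Acta2, Myl9 and Mylk and that of Ldb3, which encodes a Z-disc protein, are shown as examples from the contractile group, for which the CArG box is the best known element. They were chosen with their matches known. Each sequence is the 250 bases before the gene's start in RefSeq (GRCm38.p6), and the capitals mark a CArG box, or a match to it with a single mismatch in its A/T core. The strand shown was searched, and a match on it is also a match on the other strand.
Acta2 (chr19:34255374-34255623, minus strand): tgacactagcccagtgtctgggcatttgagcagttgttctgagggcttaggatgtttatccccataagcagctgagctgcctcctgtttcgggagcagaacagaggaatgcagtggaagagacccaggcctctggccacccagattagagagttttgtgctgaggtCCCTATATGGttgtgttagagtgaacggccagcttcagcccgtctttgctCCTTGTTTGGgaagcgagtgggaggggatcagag
Myl9 (chr2:156775214-156775463, plus strand): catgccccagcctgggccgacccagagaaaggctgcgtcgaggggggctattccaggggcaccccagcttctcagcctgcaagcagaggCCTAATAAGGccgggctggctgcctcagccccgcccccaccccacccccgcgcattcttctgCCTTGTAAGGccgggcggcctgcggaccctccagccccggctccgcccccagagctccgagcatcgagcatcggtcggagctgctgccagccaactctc
Ldb3 (chr14:34588682-34588931, minus strand): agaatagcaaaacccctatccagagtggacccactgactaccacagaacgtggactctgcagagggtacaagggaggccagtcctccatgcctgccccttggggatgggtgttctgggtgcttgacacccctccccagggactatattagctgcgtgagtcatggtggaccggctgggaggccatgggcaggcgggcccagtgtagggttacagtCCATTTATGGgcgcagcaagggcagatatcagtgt
Mylk (chr16:34784700-34784949, plus strand): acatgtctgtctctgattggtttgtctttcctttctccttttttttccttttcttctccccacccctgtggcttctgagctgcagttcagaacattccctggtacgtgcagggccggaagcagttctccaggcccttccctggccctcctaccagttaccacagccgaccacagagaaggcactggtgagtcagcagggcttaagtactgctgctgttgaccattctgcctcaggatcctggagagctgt

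Positions are counted from the RefSeq start, with -1 the last base before it. The Myl9 sequence held an exact CArG box whose first base is at -161 and a match with a single mismatch at -99. Acta2 held only matches with a single mismatch, at -84 and -34, and Ldb3 an exact box at -35. The window of Mylk had no match, which says only that these letters are not in it. The RefSeq starts of Acta2, Myl9 and Mylk lie inside the genes as GENCODE draws them, that of Mylk the deepest, so these windows need not be the promoters in use. Of the 16 members of the group 8 had a window, and Actn2, Arhgef6 and Daam2 had no match either, while Dclk2 had a match with a single mismatch. RefSeq windows from 250 bases before to 50 bases after the start were found for 86 members. An exact CArG box stood in a window of 3 of them (Myl9, Ldb3 and Rap1gap2), or 3.49%, beside 1.81% of all 27025 genes with a window and 1.67% of the tested genes that are no members. With a single mismatch allowed the count was 12, or 13.95%, beside 11.3% of all genes and 10.6% of tested non-members. A match is a description of the sequence and not a bound site.

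Other members of this group encode sarcomere and cytoskeleton proteins. Ldb3 was read at 4.38, 4.62 and 4.31 CPM in the WT libraries, at 1.46, 1.88 and 1.5 CPM in S1S2 and at 8.83, 9.01 and 8.54 CPM in G9Gl, a difference of -1.22 and 0.91 log2 units from WT in S1S2 and G9Gl. Tnni2, the inhibitory troponin of fast muscle, stood at 3.11, 3.96 and 1.96 CPM in WT, 0.637, 0.616 and 0.75 CPM in S1S2 and 4.33, 5.84 and 6.72 CPM in G9Gl, and its WT and G9Gl libraries came close, at 3.96 and 4.33 CPM. Actn2, a Z-disc alpha-actinin, stood at 1.65, 2.97 and 1.49 CPM in WT, 0.227, 0.181 and 0.516 CPM in S1S2 and 3.98, 4.72 and 4.19 CPM in G9Gl. The skeletal muscle regulators Myod1, Myog and Myf5 were at or under the floor in every genotype. A further regulator of that family, Myf6, lies next to Ptprq and was called higher in G9Gl, with means of 0.022, 0.055 and 0.62 CPM in WT, S1S2 and G9Gl. The muscle genes Tnnt2, at 0.266, 0.296 and 2.21 CPM beside Pkp1, and Xirp2, at 0 in WT and S1S2 and 2.6 CPM in G9Gl beside B3galt1, were also called higher in G9Gl. These 3 neighbours were chosen after their values were seen. Mtus1, whose product binds microtubules, stood at 86, 89 and 91.6 CPM in WT, 19.6, 17.7 and 17.9 CPM in S1S2 and 260.3, 226 and 245 CPM in G9Gl. Dclk2, a microtubule-associated kinase, was the least separated of the group in S1S2, at 1.03, 1.42 and 1.59 CPM in WT, 0.091, 0.544 and 0.844 CPM in S1S2 and 12.7, 10.2 and 11.6 CPM in G9Gl. Among regulators of small GTPases and actin, Daam2, a formin of Wnt signalling to actin, was read at 1.9, 1.91 and 1.69 CPM in the WT libraries, at 0.273, 0.0362 and 0.281 CPM in S1S2 and at 10.9, 12.4 and 11.5 CPM in G9Gl. Arhgef6, an exchange factor for Rac and Cdc42, stood at 1.99, 2.71 and 2.62 CPM in WT, 1.05, 0.652 and 1.31 CPM in S1S2 and 18, 15.8 and 17.2 CPM in G9Gl, and Arhgap24, a GTPase-activating protein for Rac, at 16.5, 14.7 and 14 CPM in WT, 3.55, 4.24 and 3.99 CPM in S1S2 and 35.1, 30.9 and 33.1 CPM in G9Gl. Myo1d, an unconventional myosin of the membrane cortex, stood at 6.28, 5.38 and 6.56 CPM in WT, 2.37, 2.28 and 1.97 CPM in S1S2 and 27.3, 25.1 and 25.2 CPM in G9Gl. The rise was the larger fold for Dclk2, Arhgef6 and Myo1d and the fall the larger for Daam2, Mtus1 and Arhgap24. Gas7 and Nhsl2, further members of the group, differed from WT by -1.50 and 1.33 and by -1.50 and 1.96.

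Among other contractile genes no gene was called both lower in S1S2 and higher in G9Gl. The list used for comparison holds 19 genes of smooth muscle contraction, of which 4 are members and 12 others were tested. In S1S2 2 of these 12 were called lower and none higher, and in G9Gl 4 were called higher and none lower, which is 16.7% and 33.3% of the 12 beside 9.0% and 10.2% of all tested genes. Their median log2 fold change was -0.48 in S1S2 and 0.37 in G9Gl. Genes that met the rule are members and were left out of these counts, here and in the lists below, so few genes with both calls could be left. Actg2, the enteric smooth muscle actin, changed by 6.86 ± 0.0604 (SE, adjusted p = 1.53e-17) in G9Gl and by -0.44 ± 0.391 (SE, adjusted p = 0.277) in S1S2, by edgeR's quasi-likelihood test. Des, the intermediate filament protein desmin, rose by 1.69 ± 0.133 (SE, adjusted p = 2.91e-08) in G9Gl and Synpo2, an actin-bundling protein, differed by -1.73 ± 0.152 (SE, adjusted p = 8.33e-08) in S1S2 by the same test, each in that mutant alone among the calls. In the direct contrast of the mutants by edgeR, which is the difference of both effects, all 3 genes were called higher in G9Gl than in S1S2, Actg2 by 7.31 ± 0.388 (SE, adjusted p = 2.24e-17), Des by 1.38 ± 0.139 (SE, adjusted p = 3.49e-07) and Synpo2 by 1.84 ± 0.168 (SE, adjusted p = 2.30e-08). This is not particular to contractile genes, since 7.97% of all tested genes were called higher in that contrast. Of the genes from other lists named below, Fbn2, Tnc, Prrx1, Fzd1, Sema3a, Cacna1g and Grem1 were also called higher in it. Cxcl10 and Cadm1 were called lower, and Ccl2 and Slit2 were not called.

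**Figure D3:**
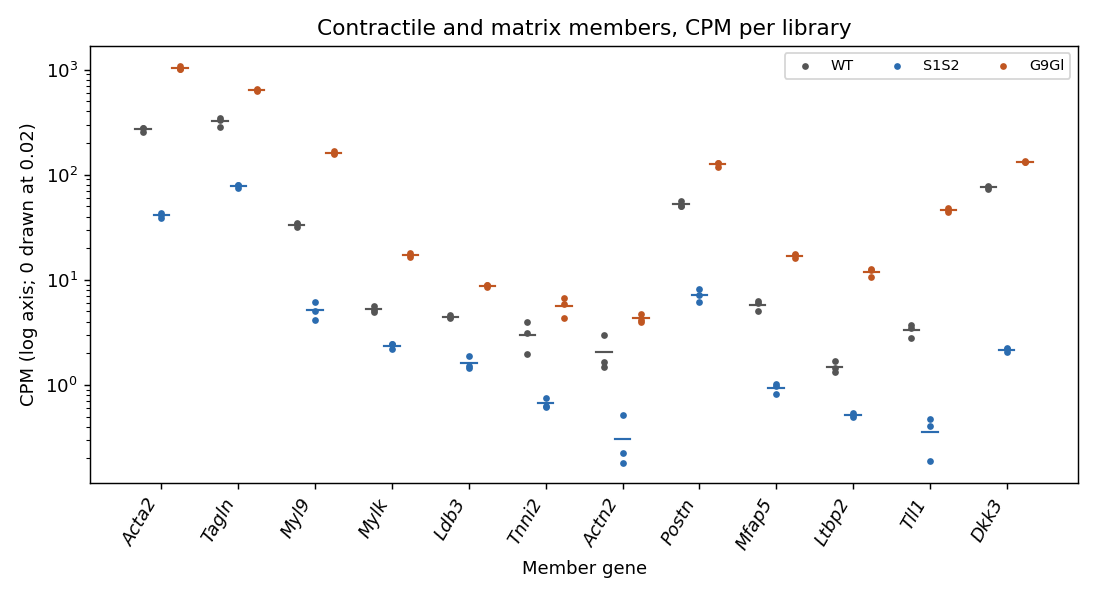
CPM on a log axis for 12 contractile and matrix members, with a point for each library, a short line at the mean of 3 libraries and colours for WT, S1S2 and G9Gl. The rule sets the S1S2 points under and the G9Gl points over the WT points in every gene. The gap below WT is widest in Dkk3 and that above WT in Tll1.

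Among 15 matrix and secreted members were both structural proteins and growth factors. Their median log2 difference was -2.02 in S1S2, within -4.84 to -0.91, and 1.48 in G9Gl, within 0.81 to 3.62. Dkk3, a secreted protein of the Dickkopf family (chr7:112116017-112159057, minus strand), had the deepest fall of all members on the scale of the rule, with 73.3, 78 and 75.9 CPM in WT, 2.05, 2.21 and 2.25 CPM in S1S2 and 131, 133 and 135 CPM in G9Gl. It was 34.9-fold lower in S1S2 but only 1.75-fold higher in G9Gl, just past the threshold. Tll1, a metalloprotease that processes procollagen (chr8:64014931-64206271, minus strand), showed the reverse balance, at 3.48, 2.77 and 3.68 CPM in WT, 0.409, 0.471 and 0.188 CPM in S1S2 and 48.3, 43.7 and 46.6 CPM in G9Gl. Postn, the matricellular protein periostin found in healing and scarring tissue (chr3:54361109-54391037, plus strand), stood at 50.4, 49.96 and 56.4 CPM in WT, 7.19, 8.16 and 6.19 CPM in S1S2 and 129.5, 117 and 129 CPM in G9Gl. Mfap5 and Ltbp2 encode proteins of the elastic microfibrils. Mfap5 was read at 5.97, 5.05 and 6.26 CPM in the WT libraries, at 0.819, 0.979 and 1.03 CPM in S1S2 and at 17.5, 16.1 and 17.3 CPM in G9Gl, and Ltbp2 at 1.34, 1.68 and 1.46 CPM in the WT libraries, at 0.50, 0.544 and 0.516 CPM in S1S2 and at 12.5, 12.8 and 10.6 CPM in G9Gl. The microfibril genes differed in balance, with the fall the larger for Mfap5 and the rise for Ltbp2.

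Angptl7, a secreted angiopoietin-like protein that lies inside Mtor on the opposite strand, was among the most abundant members, at 69.5, 76.3 and 57.4 CPM in WT, 13.3, 11.1 and 10.8 CPM in S1S2 and 289.7, 329.7 and 331 CPM in G9Gl. Mtor itself stood at means of 113.1, 121.1 and 118.3 CPM in WT, S1S2 and G9Gl, so its level did not follow that of Angptl7. Pdgfd, a ligand of the PDGF beta receptor, had libraries close together in each genotype, at 52.9, 52.2 and 54.9 CPM in WT, 27.7, 27.5 and 29.1 CPM in S1S2 and 93.5, 96.8 and 94.4 CPM in G9Gl, and was called in neither mutant because both folds stayed under 2. Fgfbp1, which frees FGF from the matrix, differed from WT by -2.95 and 1.83 and Pamr1, a secreted protein with a serine protease-like domain, by -3.29 and 1.05. Prss35, Cpa4, Ctso, Spon2 and Alkal1 were further members of the group, with WT means from 0.841 CPM for Alkal1 to 4.9 CPM for Ctso, and Prss35, Cpa4 and Alkal1 were at or under the floor in S1S2. With members at the floor taken at their bound, the median of the group was 7.28-fold lower in S1S2 and 2.95-fold higher in G9Gl.

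In the pathways these genes belong to, the other members of the lists moved both ways. The median log2 fold changes in S1S2 and G9Gl were -0.30 and 0.14 for the matrix list and 0.25 and 0.38 for the protease list. They were 0.29 and -0.03 for the Wnt list, 0.07 and 0.02 for the TGF-beta and BMP list, and -0.04 and 0.06 for the growth factor list. In the matrix list 4 were called higher and 13 lower in S1S2, and 9 higher and 7 lower in G9Gl, of 46 tested (37% and 34.8%), where the brackets here and below give the share called in S1S2 and in G9Gl. Fbn2, the microfibril protein fibrillin-2, changed by -4.96 ± 0.0364 (SE, adjusted p = 3.35e-19) in S1S2 and -1.10 ± 0.0511 (SE, adjusted p = 1.46e-12) in G9Gl in edgeR's test, so it was called lower in both. Tnc, the matricellular protein tenascin-C, changed by 3.10 ± 0.0818 (SE, adjusted p = 1.25e-16) in G9Gl and by 0.55 ± 0.0841 (SE, adjusted p = 1.33e-06) in S1S2, where its fold was under 2. In the list of proteases and inhibitors 13 were called higher and 8 lower in S1S2, and 17 higher and 5 lower in G9Gl, of 63 tested (33.3% and 34.9%). In the Wnt list 6 were called higher and 6 lower in S1S2, and 3 higher and 8 lower in G9Gl, of 36 tested (33.3% and 30.6%). Fzd1, a Wnt receptor, changed by -1.93 ± 0.0831 (SE, adjusted p = 4.35e-14) in S1S2 and by -0.37 ± 0.0312 (SE, adjusted p = 1.85e-05) in G9Gl by edgeR. In the TGF-beta and BMP list 4 were called higher and 3 lower in S1S2, and 5 higher and 4 lower in G9Gl, of 41 tested (17.1% and 22%). Grem1, a secreted BMP antagonist, was called lower in both, by -2.40 ± 0.0329 (SE, adjusted p = 8.43e-14) in S1S2 and -1.25 ± 0.112 (SE, adjusted p = 9.31e-11) in G9Gl with edgeR. Among growth factors and their receptors 9 were called higher and 12 lower in S1S2, and 10 higher and 6 lower in G9Gl, of 58 tested (36.2% and 27.6%).

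Immune genes gave 14 members. The log2 differences from WT ran from -3.18 to -0.87 in S1S2 (median -1.28) and from 0.86 to 4.08 in G9Gl (median 2.09). Il1rn, the secreted antagonist of the interleukin-1 receptor (chr2:24336853-24351494, plus strand), was read at 12.1, 10.9 and 11.6 CPM in the WT libraries, at 0.864, 0.761 and 0.844 CPM in S1S2 and at 109, 103 and 105 CPM in G9Gl. It was 14-fold lower in S1S2 and 9.13-fold higher in G9Gl. Il1rl1, the receptor of interleukin-33 (chr1:40429570-40465415, plus strand), was the most abundant immune member, at 181, 210.5 and 155 CPM in WT, 41.2, 40.6 and 34 CPM in S1S2 and 302, 343 and 348 CPM in G9Gl, and its G9Gl fold of 1.82 was under the fold needed for a call. Ccl9, a chemokine of the CC family, stood at 5.07, 4.98 and 4.94 CPM in WT, 0.136, 0.217 and 0.0938 CPM in S1S2 and 23.4, 25.4 and 27.5 CPM in G9Gl. Il16, a cytokine that signals through CD4, stood at 1.62, 1.68 and 1.92 CPM in WT, 0.364, 0.507 and 0.563 CPM in S1S2 and 7.84, 7.74 and 8.8 CPM in G9Gl. Stard5 overlaps it on the opposite strand, at means of 14.9, 7.26 and 16.6 CPM in WT, S1S2 and G9Gl. Of the 75-base sequences of Il16, 14.5% also occur in transcripts of Stard5 and 2310044K18Rik, so its reads could be shared among them. Tnfsf11, the osteoclast factor RANKL, was read at 0.871, 0.759 and 0.53 CPM in the WT libraries, at 0.227, 0.0362 and 0 CPM in S1S2 and at 3.34, 2.6 and 4.15 CPM in G9Gl. The 5 genes encode an antagonist, a receptor and 3 ligands.

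Inflammasome and SLAM family genes formed a further part of the immune group. Aim2, a sensor of cytosolic DNA (chr1:173350879-173466040, plus strand), stood at 2.21, 3.2 and 4.01 CPM in WT, 0.409, 0.399 and 0.281 CPM in S1S2 and 26.8, 23.4 and 23.5 CPM in G9Gl. Slamf8 and Slamf9 are surface receptors of the SLAM family, known from leukocytes. Slamf8 was at 0.933, 0.693 and 0.53 CPM in WT, 0, 0.0725 and 0.141 CPM in S1S2 and 20.5, 18.7 and 21.1 CPM in G9Gl, which in S1S2 is at or under the floor and at least 5.59-fold lower than WT. Slamf9 was at 1.52, 1.12 and 1.82 CPM in WT, 0.682, 0.0362 and 0.0938 CPM in S1S2 and 18.5, 11.9 and 14 CPM in G9Gl, and its S1S2 libraries were uneven, with the first far above the others. Ly9, a further SLAM receptor, differed from WT by -1.19 and 2.35. Apobec3, a cytidine deaminase that restricts retroviruses, was read at 7.77, 6.96 and 7.56 CPM in the WT libraries, at 2.55, 3.41 and 3.14 CPM in S1S2 and at 25.3, 23.8 and 22.8 CPM in G9Gl. Casp4, the caspase that senses cytosolic lipopolysaccharide, differed from WT by -1.40 and 1.86. Cd59a, which blocks the membrane attack complex of complement, was at 1.24, 0.99 and 1.66 CPM in WT, 0.0455, 0.0725 and 0 CPM in S1S2 and 6.65, 6.09 and 6.13 CPM in G9Gl. Ly6f, a GPI-anchored protein at 0 in S1S2, and Tspan32, a tetraspanin, completed the group with rises of 2.87 and 1.45. Of 6 macrophage markers Adgre1, Csf1r, Itgam, Lyz2 and Ptprc were at or under the floor in WT and S1S2, and Csf1r, Lyz2 and Ptprc were above it in G9Gl. The markers summed to between 4.38 and 4.54 CPM in WT, 3.23 and 4.05 in S1S2 and 4.58 and 4.93 in G9Gl, and their part in the immune members was not tested.

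Calls went in both directions in the chemokine and cytokine list and nearly all upward in the interferon response list. Among chemokines, cytokines and their receptors 13 were called higher and 4 lower in S1S2, and 11 higher and 11 lower in G9Gl, of 70 tested (24.3% and 31.4%). Cxcl10 changed by 3.82 ± 0.0904 (SE, adjusted p = 3.25e-17) in S1S2 and by 1.98 ± 0.0919 (SE, adjusted p = 1.27e-13) in G9Gl, and Ccl2 by 1.05 ± 0.0773 (SE, adjusted p = 3.17e-10) and 1.8 ± 0.0584 (SE, adjusted p = 9.84e-14), so by edgeR both chemokines were higher in both mutants. The interferon response list and the complement list held no member. In the former 37 were called higher and 1 lower in S1S2, and 65 higher and 0 lower in G9Gl, of 81 tested (46.9% and 80.2%), and in the latter 0 were called higher and 2 lower in S1S2, and 1 higher and 1 lower in G9Gl, of 7 tested (28.6% and 28.6%), beside 9.0% and 10.2% of all tested genes.

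Adhesion, guidance and surface proteins gave 12 members and some of the largest rises. In S1S2 they differed from WT by -2.41 to -0.93 log2 units, with a median of -1.47, and in G9Gl by 0.89 to 5.12, with a median of 2.20. Ptprq, a receptor-type phosphatase best known from the hair cells of the inner ear (chr10:107517049-107720051, minus strand), had the largest rise of all members on the scale of the rule, with 11.9, 11.1 and 11.5 CPM in WT, 3.05, 3.95 and 2.77 CPM in S1S2 and 446, 386 and 417 CPM in G9Gl. It was 36.3-fold higher in G9Gl and 3.53-fold lower in S1S2. Unc5c, a netrin receptor of axon repulsion (chr3:141465216-141834924, plus strand), stood at 1.77, 2.08 and 2.22 CPM in WT, 0.273, 0.217 and 0.281 CPM in S1S2 and 56.1, 54.3 and 56.4 CPM in G9Gl, or 27.5-fold higher in G9Gl. The related Unc5a was read at 0.684, 0.792 and 0.398 CPM in the WT libraries, at 0.0455, 0.0725 and 0.0469 CPM in S1S2 and at 1.65, 1.58 and 1.53 CPM in G9Gl, on a far lower level, and was at or under the floor in S1S2. Epha3, an ephrin receptor, was at 0.902, 1.02 and 0.563 CPM in WT, 0.136, 0 and 0 CPM in S1S2 and 3.24, 2.39 and 3.25 CPM in G9Gl. All 3 guidance receptors were at or near the floor in S1S2.

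Pkp1, a desmosomal plaque protein (chr1:135871395-135919207, minus strand), stood at 2.05, 1.32 and 1.46 CPM in WT, 0.227, 0.254 and 0.235 CPM in S1S2 and 29, 29.99 and 29.2 CPM in G9Gl, and Alcam, an adhesion molecule of the immunoglobulin family (chr16:52248996-52454074, minus strand), at 19.6, 19.4 and 19.4 CPM in WT, 3.05, 3.73 and 3.0 CPM in S1S2 and 127, 122.7 and 126 CPM in G9Gl. Thy1, a GPI-anchored fibroblast marker, was read at 5.47, 5.15 and 4.51 CPM in the WT libraries, at 1.96, 1.81 and 2.35 CPM in S1S2 and at 37.1, 40.4 and 36.6 CPM in G9Gl. Cdh17, an intestinal cadherin, was at 0.871, 0.726 and 1.09 CPM in WT, 0.0455, 0.145 and 0.141 CPM in S1S2 and 3.8, 3.8 and 4.87 CPM in G9Gl. Tspan6, a tetraspanin, had no read in 2 S1S2 libraries, with 1.9, 1.45 and 2.15 CPM in WT, 0, 0.181 and 0 CPM in S1S2 and 22.6, 22.6 and 23 CPM in G9Gl. Igsf9, a synaptic adhesion protein, was at 7.28, 8.12 and 7.06 CPM in WT, 1.55, 0.979 and 1.45 CPM in S1S2 and 15, 15.2 and 16.6 CPM in G9Gl. The surface genes are thus known from unlike tissues. Lrfn3, a synaptic adhesion protein at or under the floor in S1S2, was at least 3.52-fold lower there and 3.13-fold higher in G9Gl. Ecscr, an endothelial surface protein, differed from WT by -1.42 and 1.14. Of 6 endothelial markers Cdh5, Emcn, Kdr, Tek and Tie1 were at or under the floor in WT, while Kdr was above it in S1S2 and Cdh5, Kdr and Tek in G9Gl. The markers summed to between 0.124 and 0.199 CPM in WT, 1.55 and 1.73 in S1S2 and 0.774 and 2.36 in G9Gl, and their part in the level of Ecscr was not tested.

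Other guidance and adhesion genes were called in both directions. Among axon guidance genes 7 were called higher and 6 lower in S1S2, and 3 higher and 9 lower in G9Gl, of 51 tested (25.5% and 23.5%). Slit2, a repulsive ligand, was called lower in both mutants by edgeR, with -2.35 ± 0.0593 (SE, adjusted p = 7.08e-16) in S1S2 and -1.43 ± 0.0469 (SE, adjusted p = 1.60e-13) in G9Gl. Sema3a, a further repulsive ligand, changed by -1.50 ± 0.0439 (SE, adjusted p = 2.65e-14) in S1S2 and by 0.02 ± 0.0266 (SE, adjusted p = 0.791) in G9Gl in the same test. In the list of cell adhesion genes 16 were called higher and 6 lower in S1S2, and 14 higher and 7 lower in G9Gl, of 68 tested (32.4% and 30.9%). Cadm1 was called higher in both, by 4.47 ± 0.0557 (SE, adjusted p = 4.91e-16) and 3.13 ± 0.0931 (SE, adjusted p = 7.72e-14) with edgeR.

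Channels and transporters gave 12 members, most of them known from excitable cells or epithelia. Their median log2 difference was -1.81 in S1S2, within -3.02 to -0.81, and 1.54 in G9Gl, within 0.83 to 1.96. Slc4a4, the sodium bicarbonate cotransporter (chr5:88886818-89239653, plus strand), stood at 14.6, 16.2 and 12.9 CPM in WT, 1.73, 1.12 and 1.22 CPM in S1S2 and 57.1, 57 and 59.8 CPM in G9Gl. Slc2a3, the glucose transporter GLUT3 of neurons (chr6:122727809-122801640, minus strand), stood at 14.6, 15.3 and 13.8 CPM in WT, 2.05, 2.43 and 1.97 CPM in S1S2 and 41.3, 48.4 and 51.9 CPM in G9Gl. Slc40a1, the iron exporter ferroportin, was read at 10.7, 10.4 and 17 CPM in the WT libraries, at 1.09, 1.99 and 1.55 CPM in S1S2 and at 25.5, 22.5 and 20.8 CPM in G9Gl. Its WT libraries were uneven, and its G9Gl fold of 1.8 was too small for a call. Aqp1, a water channel, was at 3.61, 3.76 and 3.05 CPM in WT, 0.364, 0.834 and 0.375 CPM in S1S2 and 5.98, 7.25 and 7.24 CPM in G9Gl, and Atp2b4, a calcium pump of the plasma membrane, at 16.6, 17.1 and 19 CPM in WT, 9.14, 11.1 and 9.19 CPM in S1S2 and 40.7, 44.8 and 43.6 CPM in G9Gl. The transporters fell further in S1S2 than they rose in G9Gl, apart from Atp2b4.

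Kcnh2, the potassium channel of cardiac repolarization, stood at 14.6, 12.1 and 14.3 CPM in WT, 6.5, 5.84 and 6.05 CPM in S1S2 and 25, 25.7 and 25.9 CPM in G9Gl. Cacna1b, the N-type calcium channel of nerve terminals (chr2:24603887-24763152, minus strand), stood at 7.65, 7.09 and 6.83 CPM in WT, 2.37, 2.07 and 2.53 CPM in S1S2 and 21.8, 21.5 and 23.3 CPM in G9Gl. Piezo2, the mechanically gated channel of touch, was at 19.9, 18.8 and 18.3 CPM in WT, 6.0, 5.47 and 5.44 CPM in S1S2 and 40.6, 37.9 and 37.2 CPM in G9Gl. P2rx3, an ATP-gated channel of sensory neurons, was uneven, at 2.15, 0.66 and 2.05 CPM in WT, 0.50, 0.326 and 0.657 CPM in S1S2 and 9.39, 3.73 and 4.09 CPM in G9Gl. Its second WT library and first G9Gl library departed from the others, and it overlaps Ssrp1 on the opposite strand, a gene at means of 508.7, 409.9 and 508.8 CPM. Nalcn, the sodium leak channel, differed from WT by -2.18 and 1.66, and Atp6v0e2, a subunit of the proton pump at or under the floor in S1S2, was at least 7.09-fold lower there and 3.88-fold higher in G9Gl. Among other ion channel genes 7 were called higher and 6 lower in S1S2, and 11 higher and 10 lower in G9Gl, of 68 tested (19.1% and 30.9%). Cacna1g, a T-type calcium channel, was called lower in both mutants by edgeR, with -2.67 ± 0.127 (SE, adjusted p = 1.62e-12) in S1S2 and -1.25 ± 0.114 (SE, adjusted p = 2.95e-09) in G9Gl. In the list of solute carriers, ABC transporters, pumps and aquaporins 15 were called higher and 14 lower in S1S2, and 19 higher and 10 lower in G9Gl, of 241 tested (12% and 12%).

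**Figure D4:**
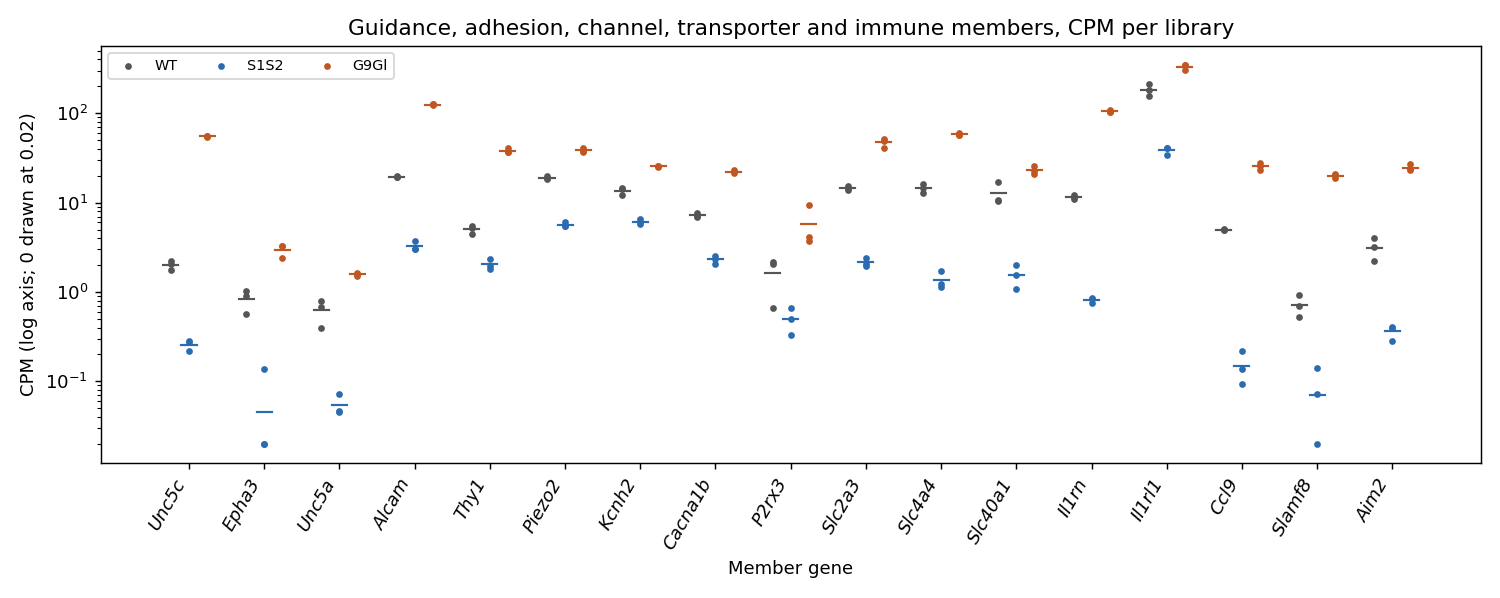
CPM on a log axis for 17 guidance, adhesion, channel, transporter and immune members, with a point for each library, a short line at the mean of 3 libraries and libraries at 0 drawn at 0.02. Among genes above the floor in S1S2, Unc5c shows the widest distance between the mutants in this plot, 216-fold, and Kcnh2 the narrowest, 4.17-fold.

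Signalling and trafficking gave 16 members. The log2 differences from WT ran from -2.30 to -0.84 in S1S2 (median -1.30) and from 0.80 to 4.99 in G9Gl (median 1.61). Mrvi1, a substrate of cGMP-dependent kinase that holds back calcium release in smooth muscle (chr7:110868266-110982461, minus strand), stood at 1.12, 1.62 and 1.36 CPM in WT, 0.273, 0.109 and 0.328 CPM in S1S2 and 52.4, 61.1 and 62.4 CPM in G9Gl, 43-fold higher in G9Gl than in WT. Plcb4, a phospholipase C acting downstream of G proteins (chr2:135659011-136014593, plus strand), was read at 1.83, 1.39 and 1.46 CPM in the WT libraries, at 0.455, 0.435 and 0.704 CPM in S1S2 and at 31.8, 28.1 and 29.7 CPM in G9Gl. Macc1, a factor described in metastasis of colon cancer (chr12:119314270-119469987, plus strand), was at 3.23, 3.73 and 2.82 CPM in WT, 0.273, 0.145 and 0.375 CPM in S1S2 and 24, 27.8 and 26.9 CPM in G9Gl. These 3 were under 4 CPM in every WT library and over 20 CPM in every G9Gl library. Bmpr1b, a type I BMP receptor, stood at 1.83, 1.48 and 1.76 CPM in WT, 0.409, 0.181 and 0.141 CPM in S1S2 and 13.2, 12.3 and 13 CPM in G9Gl. Gnao1, a G protein alpha subunit abundant in neurons, stood at 4.85, 4.98 and 3.91 CPM in WT, 1.46, 1.88 and 1.55 CPM in S1S2 and 11.1, 13.3 and 12.5 CPM in G9Gl. Syt8, a synaptotagmin, was at 9.76, 9.57 and 9.05 CPM in WT, 1.96, 1.05 and 1.59 CPM in S1S2 and 24.8, 31.4 and 32.1 CPM in G9Gl. The others were Grb14, Sh3tc2, Ston2, Prkaa2, Sytl5, Dapk2, Rap1gap2, Rab39b, Sh3rf3 and Rassf6. Of these Grb14, an adaptor that inhibits the insulin receptor, rose most on the scale of the rule, by 2.40, and Sh3tc2, a protein of Schwann cell endosomes, was lowest in S1S2 on that scale, at -2.19. Prkaa2, a catalytic subunit of AMP-activated kinase, differed from WT by -1.80 and 1.04.

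Nuclear and RNA-binding proteins gave 13 members. In S1S2 they differed from WT by -2.58 to -0.84 log2 units, with a median of -1.19, and in G9Gl by 0.83 to 2.95, with a median of 1.28. Irx3, an Iroquois homeobox factor and the only member in the list of developmental transcription factors, was read at 2.33, 1.75 and 1.92 CPM in the WT libraries, at 0.227, 0.326 and 0.657 CPM in S1S2 and at 4.75, 4.36 and 4.09 CPM in G9Gl. Isl1, a LIM homeobox factor of motor neurons and heart progenitors, was at 0 in all S1S2 libraries, with means of 0.486 CPM in WT and 7.1 CPM in G9Gl. This is at least 3.78-fold lower in S1S2 and 14.6-fold higher in G9Gl. Myrf, the regulator of myelin genes, differed by -2.10 and 1.75, and Lbh, a transcriptional cofactor, by -1.26 and 2.26. Ahrr, the repressor of the aryl hydrocarbon receptor, differed by -2.58 and 1.27, and Arnt2, a partner of bHLH-PAS factors, by -1.67 and 0.83. Tert, the catalytic subunit of telomerase, was at a mean of 0.761 CPM in WT and 2.63 CPM in G9Gl and at or under the floor in S1S2. Tspyl5, Phf21b, Tfcp2l1, Ccdc8, Elavl2 and Htatip2 completed the group, with rises between 1.00 for Elavl2 and 1.97 for Tspyl5. Among other developmental transcription factors 7 were called higher and 12 lower in S1S2, and 9 higher and 16 lower in G9Gl, of 130 tested (14.6% and 19.2%). Prrx1, a homeobox factor of limb mesenchyme and a fibroblast marker, changed by -2.44 ± 0.0676 (SE, adjusted p = 2.72e-15) in S1S2 and by -0.06 ± 0.0455 (SE, adjusted p = 0.406) in G9Gl with edgeR.

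Metabolic enzymes gave 16 members. Their median log2 difference was -1.28 in S1S2, within -2.52 to -0.84, and 1.19 in G9Gl, within 0.81 to 2.85. Sardh, a mitochondrial sarcosine dehydrogenase, was the most abundant, at 57.5, 57.7 and 58.2 CPM in WT, 21.1, 24 and 25.6 CPM in S1S2 and 100.1, 99.96 and 105 CPM in G9Gl. Ptgs1, the cyclooxygenase COX-1, stood at 0.809, 1.06 and 1.09 CPM in WT, 0.136, 0.0362 and 0.281 CPM in S1S2 and 4.92, 5.24 and 4.97 CPM in G9Gl. Gstm2, a glutathione transferase, was read at 11.7, 10.8 and 13.3 CPM in the WT libraries, at 3.64, 3.08 and 3.8 CPM in S1S2 and at 33.4, 32.7 and 29 CPM in G9Gl, and its paralog Gstm4 at 0.373, 0.594 and 0.53 CPM in the WT libraries, at 0, 0 and 0.141 CPM in S1S2 and at 1.51, 1.16 and 1.14 CPM in G9Gl. The pair lie within 54 kb of each other and on different levels, with Gstm4 at or under the floor in S1S2. Enpp1, which makes pyrophosphate outside the cell, was at 2.33, 2.71 and 2.62 CPM in WT, 1.09, 0.834 and 0.797 CPM in S1S2 and 4.78, 4.26 and 6.2 CPM in G9Gl. B3galt1, a galactosyltransferase, rose most, at 3.7, 3.07 and 3.41 CPM in WT, 0.50, 0.761 and 0.281 CPM in S1S2 and 28, 28.8 and 26.1 CPM in G9Gl. Acsl6, an acyl-CoA synthetase, and Gramd1b, a sterol transporter, were lowest in S1S2 on the scale of the rule, at -2.52 and -2.50. Ogdhl, a relative of the 2-oxoglutarate dehydrogenase subunit, differed from WT by -2.20 and 1.31, and Nnmt, which methylates nicotinamide and was at or under the floor in S1S2, was at least 7.67-fold lower there and 7.09-fold higher in G9Gl. Aig1, Mogat2, Fahd2a, Pgpep1l, Galnt16 and Xdh completed the group. In the list of retinoid, steroid and lipid metabolism, a list that took Apobec3 by its symbol alone, 16 were called higher and 16 lower in S1S2, and 24 higher and 5 lower in G9Gl, of 146 tested (21.9% and 19.9%).

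Of 6 non-coding or unannotated members, 5 were at or under the floor in S1S2. Platr14, a non-coding processed transcript named for its level in pluripotent cells (chr2:104559163-104571429, plus strand), was read at 0.404, 0.66 and 0.596 CPM in the WT libraries, at 0, 0.0725 and 0.0938 CPM in S1S2 and at 24.8, 28.1 and 27.8 CPM in G9Gl. The rise was 48.6-fold, the largest ratio among all members, from a WT level of 0.554 ± 0.133 CPM (SD, n = 3). E230016K23Rik stood at 0.715, 0.825 and 0.663 CPM in WT, 0.136, 0.109 and 0.0469 CPM in S1S2 and 3.94, 3.84 and 5.1 CPM in G9Gl and Gm37964, which lies inside B3galt1 on the same strand and could share its reads, at 0.871, 0.561 and 0.862 CPM in WT, 0.136, 0.109 and 0.235 CPM in S1S2 and 5.14, 4.75 and 4.19 CPM in G9Gl. The remaining ones were Gm12602, Gm42476 and ENSMUSG00000097348, which was matched to no entry of the annotation used. Spata4, AU021092, Tmem45a, Fam167a and Fam135b are coding genes outside the groups above. Spata4, named for its expression in testis, was at 1.68, 1.65 and 1.13 CPM in WT, 0.273, 0.507 and 0.141 CPM in S1S2 and 8.16, 9.26 and 8.76 CPM in G9Gl. Among 21 other germline genes tested 5 were called higher and none lower in S1S2, and 4 higher and none lower in G9Gl. This is 23.8% and 19% of them, beside 9.0% and 10.2% of all tested genes.

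Gnao1 was the only member in the list of G protein-coupled receptors and their regulators, where 12 were called higher and 10 lower in S1S2, and 15 higher and 11 lower in G9Gl, of 101 tested (21.8% and 25.7%). In the list of small GTPase regulators and cytoskeletal genes, which holds 6 members, 14 were called higher and 6 lower in S1S2, and 11 higher and 7 lower in G9Gl, of 141 tested (14.2% and 12.8%). In the 18 lists together, 48 members had a place and 77 had none.

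The members with a known place were spread over all autosomes and the X chromosome. Chromosome 2 held 15 of them, or 12%, beside 7.81% of the tested genes, and chromosome 1 held 13, or 10.4%, beside 6.88%. Chromosome 19, where the median gene was 0.34 log2 units higher in S1S2 and 0.17 lower in G9Gl, held Acta2 and Myrf. The rule itself sets that any member there moves against both shifts. Some members lay side by side. Unc5c and Bmpr1b are 2.2 kb apart on chromosome 3, Syt8 and Tnni2 1.4 kb apart on chromosome 7, Ccl9 and E230016K23Rik 3.4 kb apart on chromosome 11, and Slamf9 and Igsf9 3.2 kb apart on chromosome 1. Mfap5 and Slc2a3, Il1rn and Cacna1b, and Cd59a and Platr14 are pairs within 500 kb. Reads that run past the end of a gene could be counted for such a neighbour, and this was not tested. Cacna1b lies 26.8 kb from Ehmt1, one of the genes disrupted in G9Gl.

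A stretch of distal chromosome 1, chr1:171588624-173466040 (GRCm38), held 5 members, Ly9, Slamf9, Igsf9, Slamf8 and Aim2, among 21 tested genes. It was picked after its members had been seen. Of the 16 other tested genes there, 1 was called higher and none lower in G9Gl, with a median log2 fold change of -0.24, and none higher and 2 lower in S1S2, with a median of -0.46. Over all tested genes of chromosome 1 the medians were -0.26 in G9Gl and -0.13 in S1S2.

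The genes next to members were tested as values that the rule did not use. The nearest tested gene on either side of each member, other than members, gave 234 genes. In S1S2 11 of them were called higher and 18 lower, or 12.4%, beside 9.0% of all tested genes, with a median log2 fold change of -0.06. In G9Gl 43 were called higher and 8 lower, or 21.8%, beside 10.2%, with a median of 0.20. Only Col22a1, a collagen gene beside Fam135b, was called both lower in S1S2 and higher in G9Gl, and it is named here after its values were seen. Of the 148 tested genes with both calls, or 0.952% of all, 110 are members and were left out of the neighbours, so this count was set low in advance. The S1S2 call of Col22a1 was lost without WT replicate 3, S1S2 replicate 1 or S1S2 replicate 3, with edgeR adjusted p of 0.0192, 0.027 and 0.0113. Within 50 kb of the member, 110 neighbours gave 4 higher and 10 lower calls in S1S2 and 24 higher and 4 lower calls in G9Gl, or 12.7% and 25.5%. Beyond 50 kb the shares were 12.1% and 18.5% of 124 genes. Whether these shares differ from those of neighbours of other genes was not tested.

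Single neighbours show how far the levels went apart. Asb5, 12.9 kb from Spata4, stood at means of 0.735 CPM in WT, 0.622 in S1S2 and 134 in G9Gl. Psd4, 16.1 kb from Il1rn, stood at 0.0221, 0.0277 and 6.84 CPM. Both were higher in G9Gl without a change that passed the test in S1S2. Lsp1, 16.4 kb from Tnni2, was called lower in S1S2, with 59.8, 18.4 and 83.5 CPM in WT, S1S2 and G9Gl, and its rise in G9Gl was under 2-fold and not called. Dusp23, 40.2 kb from Slamf8, was called lower in S1S2 at 0.511 CPM against 2.47 in WT, with 2.25 CPM in G9Gl. Ccl5, 42.4 kb from Ccl9, was called higher in both mutants, at 1.1, 14.2 and 10.2 CPM.

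**Figure D5:**
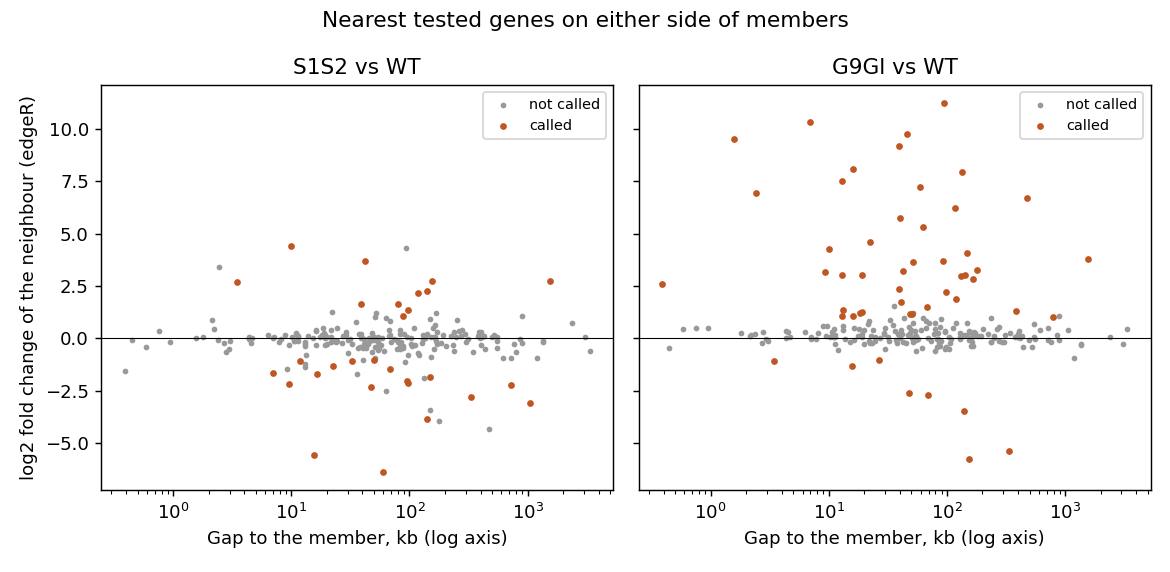
log2 fold change (edgeR) of the 234 nearest tested genes beside members in S1S2 (left) and G9Gl (right) against the gap to the member in kb on a log axis, with called genes in colour. Called genes lie on both sides of 0 in S1S2 and mostly above 0 in G9Gl, at gaps from under 1 kb to over 500 kb.

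The promoters of members were poorer in CpG than those of other genes expressed in these cells. The ratio of observed to expected CpG, taken as the highest over a gene's RefSeq windows, had a median of 0.571 for the 86 members with a window, 0.794 for 10156 tested genes that are no members and 0.415 for all 27025 genes. A ratio of at least 0.6, a common mark of CpG island promoters, was found for 39 of the 86 members, or 45.3%, beside 76.7% of tested non-members and 38.4% of all genes. The members also stood lower in WT than other tested genes, and no comparison at matched level was made.

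Genes close to the thresholds show where the set ends. Just inside, Atp2b4, Xdh and Phf21b differed from WT by -0.81, -0.84 and -0.84 in S1S2, and Sh3rf3, Tnni2 and Sardh by 0.80, 0.81 and 0.81 in G9Gl. Just outside were Alx1 and Myh14 at -0.79 and Nox4 at -0.78 in S1S2, and Itgbl1, Slc7a11 and Tle4 at 0.77 in G9Gl. When the members were chosen without one replicate number of every genotype, 124, 127 and 122 genes met the rule in turn, of which 116, 116 and 111 were among the 125. In the libraries left out, all of the 127 and all but 1 of the 124 and of the 122 lay below WT in S1S2 and above WT in G9Gl, as did 21.2%, 18% and 16.6% of all tested genes in the libraries of replicate 1, 2 and 3. The libraries left out are cultures of the same clones, so this bears on the spread between cultures and not on the genotype.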

How the data were processed

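Per the labels, total RNA was extracted with trizol and sequenced as TruSeq stranded total RNA libraries, 3 for each of WT, S1S2 and G9Gl MEF. The table holds raw counts of reads for each Ensembl gene, as deposited. Its authors made it by trimming with cutadapt, alignment to GRCm38 with STAR (2.5.2b in the submitters' processing notes) and counting with TEtranscripts, which can divide multiply aligned reads among near-identical genes. The strand setting and the annotation release were not given in the sources used here, so reads of overlapping genes may be mixed.

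Symbols and positions came from GENCODE M21 (GRCm38), which matched 47310 of 47937 identifiers, and promoter sequences from RefSeq (GRCm38.p6). Differences were tested in edgeR 4.0.16 (R 4.3.3) by its quasi-likelihood test after TMM normalization and filterByExpr, in a single fit of the 9 libraries. Each SE was computed from the replicates' log2 CPM, made with a prior count of 2. Adjusted p-values (Benjamini-Hochberg) run over all 15540 tested genes, and the scripts were tested on simulated counts. Floors cover counting error only, since these reads carry no molecular identifiers.

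The members, the gene lists and the alternatives were chosen with earlier results of these data known. Values in every library are given for the 16 members with the largest difference between the mutants, the 12 with the highest mean CPM, those in a list and those within 500 kb of another member, except 3 members that are counted but not reported here by name. Other genes are named as targeted genes, as one of the 4 called genes with the smallest adjusted p of a list, as a neighbour or overlapping gene of a member given in full, or as a marker. The alternatives were DESeq2 1.42.0, DESeq2 size factors, no composition factor, 2 other filters, the threshold without a fold, a replicate block, other settings of the rule, and leaving out libraries.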

Additional observations from a re-analysis of the deposited data

How the results depend on the processing

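The number of members moved most with the constant added to CPM. It was 196 with 0.1 CPM in place of 0.5, with all 125 among them, 52 with 2 CPM, 83 with a threshold of 1, and 82 among genes with a mean count of at least 100. It stayed at 125 with TMM-scaled CPM, with 124 shared, and was 128 with chromosome medians removed, with 121 shared. Requiring 10 counts in every library, which removes low genes, left 45 members called in both mutants, 14 and 14 neighbours called in S1S2 and G9Gl, and 728, 682 and 962 genes called in S1S2 vs WT, G9Gl vs WT and G9Gl vs S1S2. An adjusted p of 0.05 or less without a fold gave 7599, 7138 and 8288 genes and 128 and 150 neighbours. With a single library left out, 122 to 131 genes met the rule, 106 to 111 members were called in both, 26 to 30 neighbours were called in S1S2 and 47 to 51 in G9Gl, and 1274 to 1402, 1501 to 1578 and 1911 to 2054 genes in the 3 contrasts. Leaving out a replicate number from all genotypes at once was added after seeing the data.

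Same-numbered libraries did not deviate together, with correlations of deviations from -0.0686 to 0.124, so the numbers were not taken as pairs. With the replicate block, 1383, 1568 and 2022 genes were called, 111 members in both mutants, and 28 and 51 neighbours.

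For 87 named genes in both mutants, 2503 of 2540 recomputed values kept their direction and their side of the threshold. The 19 that lost a call belonged to Aqp1, Enpp1, Gstm4 and Tagln in G9Gl and to Dclk2, Ccl2 and Col22a1 in S1S2, and 8 gained one. Tagln in G9Gl stood at 0.93 without WT replicate 3 and 0.99 without a composition factor. Changes of sign concerned uncalled values of genes that are no members. Sema3a in G9Gl stood at -0.0139 without a composition factor. With single libraries left out it ranged from -0.00551 to 0.0395, Dusp23 in G9Gl from -0.17 to 0.00936, Asb5 in S1S2 from -0.38 to 0.00096, Tnnt2 in S1S2 from -0.16 to 0.85, and Psd4 in S1S2 from -0.18 without WT replicate 1 to 2.86 without WT replicate 3. The cause was not tested. Among counts in the function lists, 511 stayed within 1.5 times and 65 did not. At this depth a level under about 0.1 CPM could not be told from 0.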
